A study of Rattus norvegicus with 3 samples.

Results

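The Seh1 peaks described here are those whose nearest gene is a nuclear receptor, a coregulator of nuclear receptors, or a gene that makes, breaks down or carries retinoids. Seh1 is a subunit of the nuclear pore complex. Chromatin bound by Seh1 was sequenced after immunoprecipitation (ChIP-seq) at 2 stages of cultured rat cells, oligodendrocyte progenitors (OPC) and the immature oligodendrocytes (iOL) that they become. The members were 50 genes chosen by function: 37 receptors, 5 coregulators and 8 retinoid genes, with the thyroid hormone receptors left out. Peaks were taken by gene name from the authors' annotated table of OPC peaks, and 41 peaks, at 23 of the 50 genes, belonged to these members.

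Both cell stages came from forebrain of Sprague Dawley rats at postnatal day 1 to 2. OPC were cultured with PDGF-AA, bFGF, NT3 and CNTF. For iOL the first 3 of these factors were withdrawn and triiodothyronine (T3) was given at 60 nM for 1 day. Each stage has 1 Seh1 library. An IgG library from iOL is named in the header of the annotated table and was not analysed here as a profile. On build rn6 there were 9117 OPC peaks, each 205 bp long, and 6704 iOL peaks, each 209 bp long. The sources used here give no read totals, and the depth is therefore unknown. Single libraries give no replicate error, so no test between stages was possible. Intervals below are exact binomial 95% intervals (Clopper-Pearson) and cover counting error only. Gene expression was not measured in these libraries, so the cell type could not be checked against marker genes.

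Nuclear receptors are transcription factors that bind DNA through a pair of zinc fingers, many of them only changing activity once a small lipid-soluble ligand such as a steroid, a fatty acid or retinoic acid is bound. Many bind as dimers to repeats of the hexamer AGGTCA, often with an RXR as partner, and recruit coactivators or corepressors. In the oligodendrocyte lineage the thyroid hormone receptors, which share RXR as partner with the retinoic acid receptors, drive the timing of differentiation, and RXR gamma is known as a promoter of remyelination. Retinoic acid is made from retinaldehyde by the Aldh1a enzymes and is destroyed by the Cyp26 enzymes.

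Promoters were shown for members with an OPC peak close to a transcription start site (TSS): Aldh1a2 and Nr1h2 as those with a peak within 1 kb for which the reference table lists a promoter, and Nr4a1 and Rarg as receptor genes with 2 peaks each within 10 kb. The sequences are from RefSeq on build GRCr8 and give the 250 bases before the listed start, 5′ to 3′ on the strand of the gene. Capitals mark the hexamer AGGTCA on either strand. A sequence in lower case throughout has none in these 250 bases. The peaks are on rn6, so no peak was placed within these sequences.
Aldh1a2 (GRCr8, chr8:80758391-80758640, plus strand): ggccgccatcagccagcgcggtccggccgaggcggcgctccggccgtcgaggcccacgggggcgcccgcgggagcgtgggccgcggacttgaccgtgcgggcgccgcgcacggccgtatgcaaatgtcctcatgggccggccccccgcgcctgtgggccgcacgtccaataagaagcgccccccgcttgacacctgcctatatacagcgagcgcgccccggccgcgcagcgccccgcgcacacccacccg
Nr1h2 (GRCr8, chr1:104183864-104184113, minus strand): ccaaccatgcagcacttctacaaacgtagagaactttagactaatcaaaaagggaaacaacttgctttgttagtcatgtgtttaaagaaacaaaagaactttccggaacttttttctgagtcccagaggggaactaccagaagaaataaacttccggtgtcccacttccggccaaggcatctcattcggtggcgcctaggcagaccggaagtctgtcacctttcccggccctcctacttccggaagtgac
Nr4a1 (GRCr8, chr7:134259888-134260137, plus strand): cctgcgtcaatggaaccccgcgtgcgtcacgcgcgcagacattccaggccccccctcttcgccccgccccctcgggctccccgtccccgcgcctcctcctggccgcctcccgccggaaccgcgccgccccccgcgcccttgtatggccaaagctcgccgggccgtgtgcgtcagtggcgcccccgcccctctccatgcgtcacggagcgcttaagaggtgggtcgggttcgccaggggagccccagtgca
Rarg, outer start (GRCr8, chr7:135268890-135269139, minus strand): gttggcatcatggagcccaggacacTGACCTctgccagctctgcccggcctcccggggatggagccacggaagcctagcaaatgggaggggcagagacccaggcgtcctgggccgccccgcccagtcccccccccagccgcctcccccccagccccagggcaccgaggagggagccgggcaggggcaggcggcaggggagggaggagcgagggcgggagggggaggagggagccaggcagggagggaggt
Rarg, inner start (GRCr8, chr7:135257806-135258055, minus strand): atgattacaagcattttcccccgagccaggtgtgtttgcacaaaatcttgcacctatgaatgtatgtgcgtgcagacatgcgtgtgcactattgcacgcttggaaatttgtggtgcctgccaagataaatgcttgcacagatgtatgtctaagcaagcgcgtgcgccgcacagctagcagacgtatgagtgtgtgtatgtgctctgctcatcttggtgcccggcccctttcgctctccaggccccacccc

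The promoters differed in base composition. That of Aldh1a2 was 77.2% G or C with 41 CG dinucleotides, that of Nr4a1 74.8% with 32, and that of Nr1h2 47.2% with 9. Medians over all 33469 promoters in the table were 51.2% and 5. The outer start of Rarg, 74.8% G or C, carried 1 such hexamer on the reverse strand, and the inner start carried none. In the full window of 250 bases before to 50 after the start, the hexamer was present in 4 of 50 promoters of the 42 members in the table (8.0%), against 16.2% of all promoters. Median G or C content of this window was 60.7% in member promoters, against 51.7% in all promoters, and no adjustment for this was made. Members with an OPC peak had the hexamer in 3 of 23 promoters, which belong to 18 genes. Members without one had it in 1 of 27, which belong to 24 genes. Some genes have more than 1 listed start, and members not in the table were not searched. Direct repeats of 2 hexamers with 1 to 5 bases between them were in 0 of the 50 member promoters and in 0.105% of all promoters. These are letter matches only, and a window without a match only lacks these letters. Nr4a3 also had a peak within 1 kb of its TSS and is named without its promoter.

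Of the 50 members, 23 were the nearest gene of at least 1 OPC peak, 46.0% (31.8 to 60.7%). The background over 18539 coding genes with a curated transcript was 30.1%. Within 50 kb of a TSS the members' count was 17 of 50, 34.0% (21.2 to 48.8%), against 22.1% of coding genes, and within 10 kb it was 11 of 50, 22% (11.5 to 36.0%), against 11.1%. The 3 functional groups differed in their counts. Receptors had a peak in 20 of 37 genes, 54.1% (36.9 to 70.5%), and coregulators in 2 of 5 (5.27 to 85.3%). Among the retinoid genes 1 of 8 had a peak, 12.5% (0.316 to 52.7%). The intervals of the 3 groups overlapped. Within 50 kb the counts were 16 of 37 receptors, 0 of 5 coregulators and 1 of 8 retinoid genes. Genes of the Sox, Fox and Klf families, other developmental transcription factors, had a peak in 39 of 76, 51.3% (39.6 to 63.0%), and within 50 kb in 27 of 76, 35.5%. The members' shares lay within the intervals of these families in both settings. A share by nearest gene also depends on how far the next gene lies, which was not measured on rn6.

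**Figure D1:**
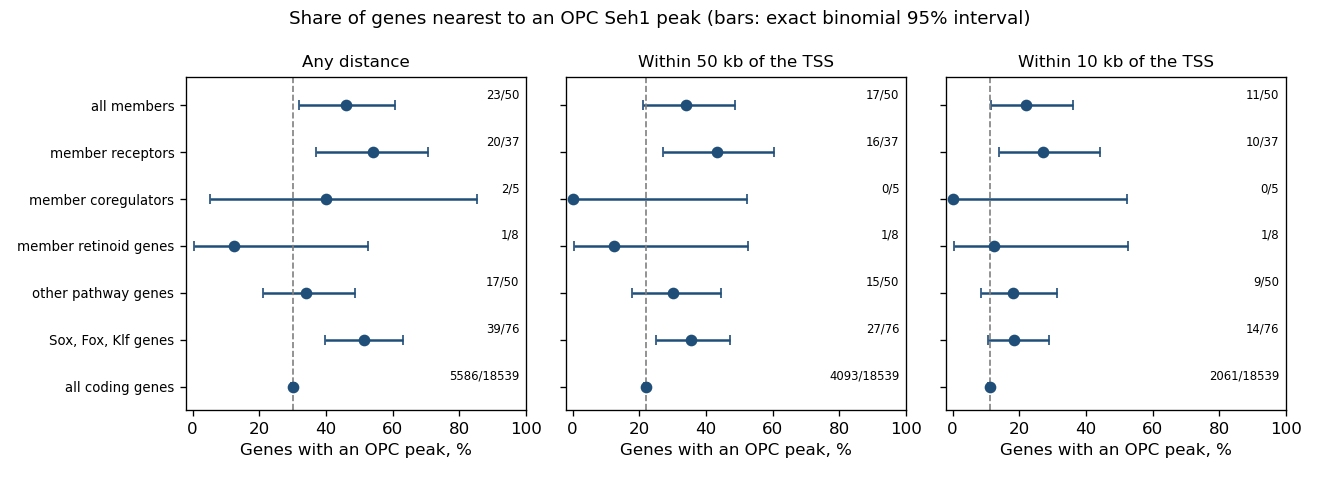
Share of genes (x axis, percent) that are the nearest gene of an OPC Seh1 peak, at any distance, within 50 kb and within 10 kb of the TSS. Points are shares, bars exact binomial 95% intervals, and the dashed line is the share of all coding genes; receptors lie to its right in all 3 panels, and the intervals of the coregulators and of the retinoid genes span it.

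Among the retinoic acid receptors and their RXR partners 4 of the 5 members had a peak, with 6 peaks in all. That is 80.0% (28.4 to 99.5%), against 30.1% of coding genes. Rxra is not a member, and its 4 peaks are given with the further genes below. Rarg, the receptor that predominates in skin and cartilage, had its 2 peaks closest to a start. One lay between genes at -3824 bp from the outer TSS (chromosome 7, 143866928 to 143867132, score 8.94), and one in intron 3 of 9, at -3366 bp from a second, inner TSS (143855383 to 143855587, score 7.66). The score is that of the authors' peak caller, without a definition in the file, and its median over all annotated OPC peaks was 7.66. Both Rarg peaks therefore lay a few kb upstream of 1 of its 2 promoters. Rara, the most widely expressed of these receptors, had 1 peak 25127 bp downstream of its TSS in a SINE repeat (chromosome 10, 86895555 to 86895759, score 8.3). Rarb, itself a classical target of retinoic acid, had 1 peak in intron 3 of 7 at 76229 bp (chromosome 15, 10196333 to 10196537, score 8.3) and 1 in a SINE repeat at -305334 bp (score 6.38). Rxrg had a single peak between genes at -46421 bp (chromosome 13, 85771950 to 85772154) with a score of 6.38, a value that 98.1% of annotated OPC peaks reached. Rxrb had no peak.

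Receptors for fatty acids, oxysterols, bile acids and vitamin D had a peak in 2 of 7 genes (28.6%, 3.67 to 71.0%, against 30.1% of coding genes). Ppard, a fatty acid receptor and the PPAR most often described in oligodendrocytes, had 4 peaks, all within 50 kb of its TSS. One lay at -5293 bp (chromosome 20, 7812894 to 7813098, score 9.58). The other 3 fell in intron 2 of 7, at 27150, 32652 and 34466 bp, with scores of 7.66, 6.38 and 8.94. Gaps between these intron peaks were 5297 and 1609 bp, the closest spacing between peaks of any 1 member. Nr1h2, the oxysterol receptor LXR beta that controls cholesterol export, had a peak in the 5' UTR, in exon 2 of 10, at 262 bp from the TSS (chromosome 1, 100559532 to 100559736, score 7.66). That was the peak nearest to a TSS among all 41. Vdr, Ppara, Pparg, Nr1h3 and Nr1h4 had none.

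Of the circadian repressors and ROR receptors, Nr1d1 (REV-ERB alpha) had the single peak of the group, in intron 3 of 7 of a listed transcript, 1454 bp downstream of the TSS (chromosome 10, 86687174 to 86687378, score 7.02). It was the only member peak with a CpG island label, 1 of 41 (2.44%) against 5.37% of all annotated peaks. Nr1d2, Rora and Rorb had none.

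The NR2 orphan receptors gave the most peaks, 10 over 4 of 7 genes (57.1%, 18.4 to 90.1%, against 30.1% of coding genes). Of the 10 peaks 8 lay in annotated repeats, against 33.2% of all annotated OPC peaks. Nr2f1 (COUP-TFI), which patterns the cortex, had 5 peaks, more than any other member, all far upstream at -705074 to -1341497 bp (chromosome 2, 6284866 to 6921493). All 5 were in repeats: 2 LINE copies, 2 LTR copies and 1 RatSatRep2 copy. Their scores were 7.02, 10.2, 8.94, 7.02 and 10.9 in the order of increasing distance, and only the Ncoa2 peak below scored above 10.9 among the members. Neighbouring peaks of this group stood 140896 to 204116 bp apart. Nr2f2 (COUP-TFII), a regulator of vascular and interneuron development, had 1 peak in intron 2 of 2 at 3413 bp (chromosome 1, 131451174 to 131451378, score 7.02). Its other peaks stood at 472196 and -846259 bp, both in repeats. Nr2f6, an orphan receptor that represses transcription, had 1 peak at -4152 bp (chromosome 16, 19781464 to 19781668, score 8.3), which fell in exon 13 of 13 of Ushbp1, the neighbouring gene. Nr2e1 (Tlx), which maintains neural stem cells, had 1 peak in an LTR repeat at -22255 bp with a score of 7.66. Hnf4a, Nr2c1 and Nr2c2 had none.

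Steroid receptors and estrogen-related receptors had a peak in 4 of 8 genes (15.7 to 84.3%), against 30.1% of coding genes. Of their 6 peaks 1 lay within 10 kb of a TSS, against 25.4% of all annotated OPC peaks. This was at Esrrb, an orphan regulator known from pluripotent cells, at -5755 bp (chromosome 6, 110404284 to 110404488, score 6.38). Esrrg, a regulator of oxidative metabolism, followed at -11362 bp with a score of 7.02. Esr2, the beta estrogen receptor, had a peak at -26570 bp in a simple repeat inside intron 8 of 8 of Tex21, and another between genes at 212550 bp, with scores of 7.66 and 7.02. Nr3c2, the mineralocorticoid receptor, had 2 peaks at -452598 and -480029 bp, of scores 8.3 and 6.38, and the former was in a RatSatRep2 repeat. Esr1, Esrra, Nr3c1 (the glucocorticoid receptor) and Pgr (the progesterone receptor) had no peak.

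The NR4, NR5 and NR6 receptors had a peak in 5 of 6 genes (83.3%, 35.9 to 99.6%, against 30.1% of coding genes). None of the 8 peaks lay in a repeat, against 33.2% of all annotated OPC peaks. All 3 genes of the NR4A family, immediate early genes induced by growth factors and by activity, were among them. Nr4a1 (Nur77) had 2 upstream peaks between genes, at -2704 bp (chromosome 7, 142909503 to 142909707, score 7.02) and -8539 bp (142903668 to 142903872, score 7.66). Nr4a2 (Nurr1), required for dopamine neurons, had 1 between genes at 9781 bp (chromosome 3, 43107523 to 43107727), and its score of 10.2 was reached by 5.52% of annotated OPC peaks. Nr4a3 had 1 peak in intron 1 of 7 at 564 bp (chromosome 5, 63782263 to 63782467, score 7.02) and 2 upstream, at -74666 and -213639 bp. Its intron peak had a focus ratio of 0.55, the lowest of the 41; this fraction is reported by the caller for each peak and had a median of 0.778 over all annotated peaks and over the members. Nr5a2, a regulator of bile acid and steroid synthesis, had a peak at -11213 bp (score 7.66) with the highest focus ratio among the members, 0.933. Nr5a1, the master regulator of adrenal and gonadal steroid synthesis, had 1 at -60798 bp (chromosome 3, 23081137 to 23081341, score 9.58). Nr6a1 had none.

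**Figure D2:**
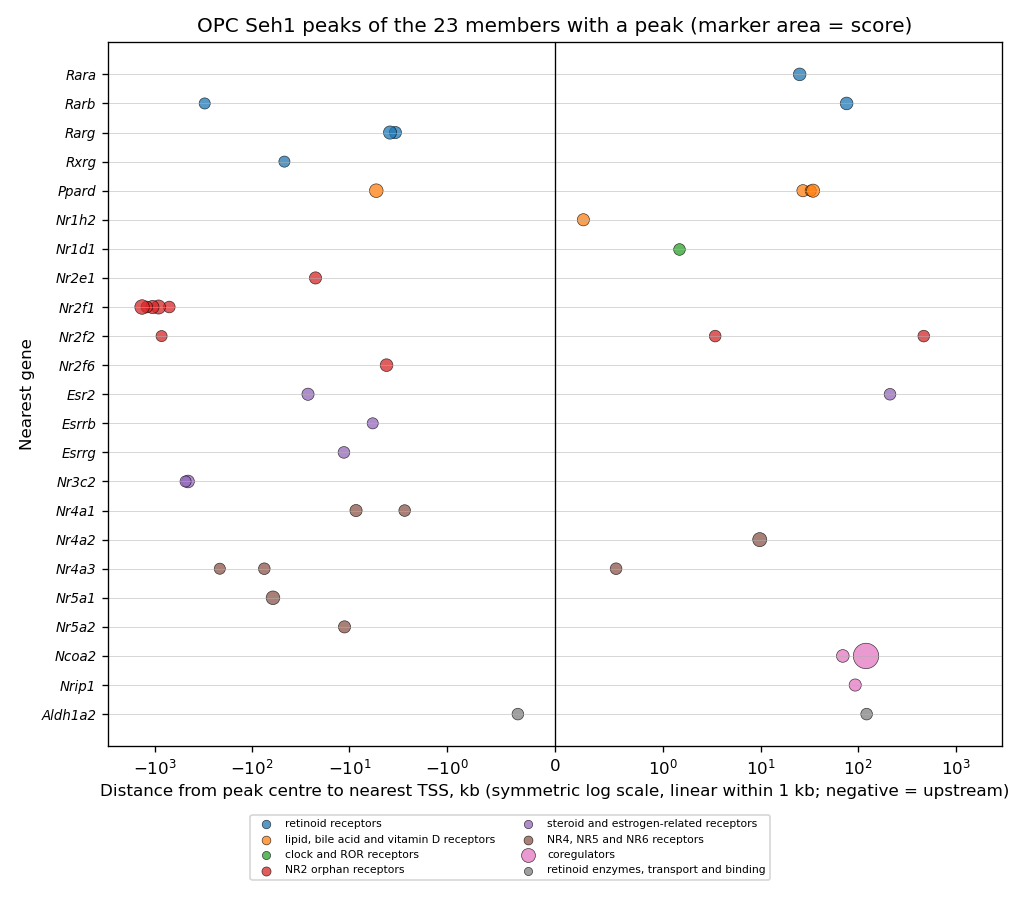
Signed distance from each of the 41 OPC peaks to the TSS of its nearest gene (x axis, kb, symmetric log scale, upstream to the left), 1 line per member with a peak; colours give the role and marker area the score. The 5 Nr2f1 peaks form the far left group, the peaks of Nr1h2, Nr4a3 and Aldh1a2 lie within 1 kb, and the large marker is the Ncoa2 peak of score 33.2.

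Coregulators had a peak in 2 of 5 genes (40.0%, 5.27 to 85.3%, against 30.1% of coding genes). Within 50 kb of a TSS the count was 0 of 5 (upper bound 52.2%), against 22.1% of coding genes. Ncoa2 (the p160 coactivator TIF2, which bridges bound receptors to histone acetyltransferases) had the strongest member peak, score 33.2, a value reached by 0.253% of annotated OPC peaks. It stood between genes in a repeat copy of 7SL, an RNA component of the signal recognition particle, 120562 bp from the TSS (chromosome 5, 5736943 to 5737147). High scores were common to such copies: the 18 annotated OPC peaks in them had a median score of 39.9, above that of the Ncoa2 peak. A second Ncoa2 peak fell in exon 16 of 20 at 69643 bp (5686024 to 5686228, score 8.3). Nrip1 (RIP140, a ligand-dependent corepressor) had 1 peak between genes at 93419 bp with a score of 7.66. Ncoa1, Ncoa3 and Ppargc1a had none.

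Of the 8 retinoid genes only Aldh1a2 had a peak (12.5%, 0.316 to 52.7%, against 30.1% of coding genes). Aldh1a2, a retinaldehyde dehydrogenase that makes retinoic acid in the embryo and the meninges, had 1 at its promoter, at -343 bp (chromosome 8, 77639789 to 77639993, score 7.02). It was the single member peak in the promoter class, 1 of 41 (2.44%, 0.0617 to 12.9%), against 4.02% of all annotated OPC peaks. Its second peak was in a simple repeat at 122358 bp with the same score. The other enzymes and carriers, Aldh1a1, Aldh1a3, Rdh10, Cyp26a1, Crabp1, Crabp2 and Stra6, had none.

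As a group the member peaks resembled other OPC peaks in strength. Their scores ran from 6.38 to 33.2 with a median of 7.66 and quartiles of 7.02 and 8.3, the same 3 values as over all annotated peaks. Receptor peaks alone reached at most 10.9. In all, 14 member peaks (34.1%) had a score above 7.66, against 27.6% of all annotated peaks. The mean over the members was 8.35 with the Ncoa2 peak in the 7SL copy included, and 7.64 over the 27 member peaks outside repeats.

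The member peaks lay between genes in 28 of 41 cases, 68.3% (51.9 to 81.9%), against 56.7% of all annotated peaks, and in introns in 9, 22%, against 29.4%. Sox, Fox and Klf genes had 75.9% of their 79 peaks between genes. Annotated repeats held 14 member peaks, 34.1%, against 33.2% of all. Upstream positions were more frequent among the members, 25 of 41 or 61.0% (44.5 to 75.8%), than among all annotated peaks, 42.4% (41.4 to 43.5%), and among peaks of Sox, Fox and Klf genes, 35.4% (25 to 47.0%). Among the 34 peaks of further genes of these pathways, described below, it was 47.1% (29.8 to 64.9%), an interval that includes the members' 61.0%. Without the 5 peaks of Nr2f1 the members' share was 55.6% (38.1 to 72.1%). With 1 peak per gene, the nearest, it was 14 of 23 or 60.9% (38.5 to 80.3%), against 40.8% of 5586 coding genes. The last interval includes the value for all annotated peaks, and the difference was not tested.

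**Figure D3:**
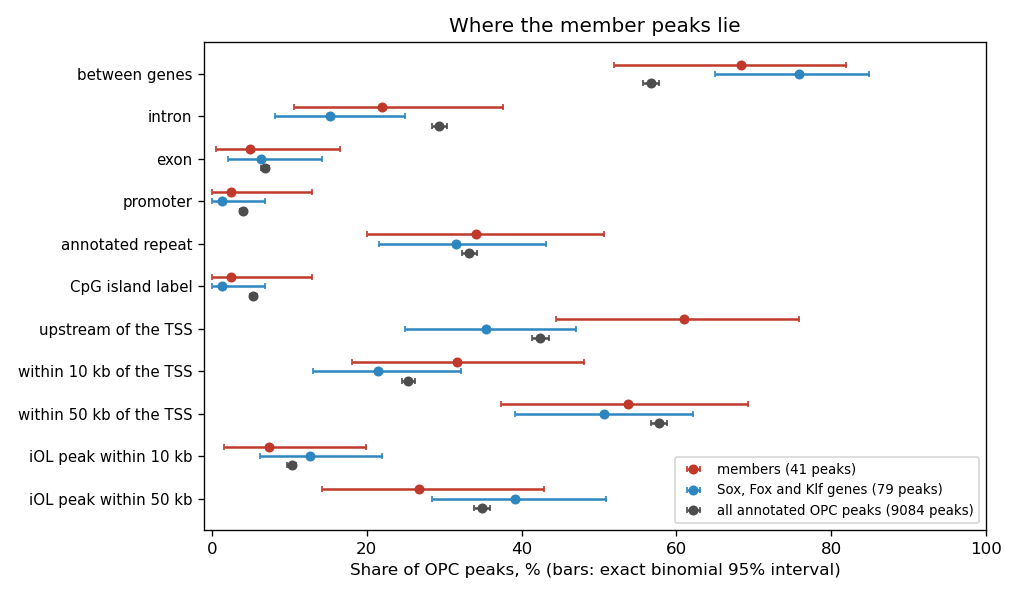
Share of OPC peaks (x axis, percent) by annotation class, side of the TSS, distance and nearness to an iOL peak, for the 41 member peaks, 79 peaks of Sox, Fox and Klf genes and all annotated OPC peaks. Points are shares and bars exact binomial 95% intervals. The members' point lies furthest to the right for upstream peaks, 61.0%. For an iOL peak within 50 kb it lies left of both other sets, 26.8%. Further genes of these pathways, not among the 3 sets, had such a peak at 17 of 34 peaks (32.4 to 67.6%).

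The stages were compared at the members by the distance from each OPC peak to the nearest iOL peak. Of the 41 peaks, 1 shared bases with a peak of the iOL list, 2.44% (0.0617 to 12.9%), against 1.73% of all annotated OPC peaks. It was the Ncoa2 peak in the 7SL copy, with 203 of 205 bp shared (iOL peak 5736945 to 5737153). Neither receptors, 0 of 36 peaks (upper bound 9.74%), nor retinoid genes, 0 of 2 peaks, shared a peak with iOL. An iOL peak lay within 10 kb of 3 member peaks, 7.32% (1.54 to 19.9%), against 10.3% of all annotated OPC peaks. These were both Ncoa2 peaks and the outer Rarg peak. The exon 16 peak of Ncoa2 had an iOL peak 360 bp away (5686589 to 5686797), so each Ncoa2 peak of OPC had an iOL peak beside it or on it. The outer Rarg peak had one at 3322 bp (143870455 to 143870663). Rara followed at 10715 bp, Esrrg at 12864 bp, the inner Rarg peak at 13462 bp and Nr1d1 at 15481 bp. The gap was largest at Nr3c2, 751919 and 779350 bp.

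Over all 41 peaks the median gap to an iOL peak was 114 kb (quartiles 47.8 and 303 kb), against 88.3 kb (31.1 and 210.5 kb) over annotated OPC peaks. Without Nr2f1 it was 94.1 kb. Both medians lay inside the other set's quartiles. Peaks of the further genes of these pathways, described below, went the other way. Their median gap was 52.3 kb (quartiles 19.9 and 124 kb). Of these 34 peaks 17 had an iOL peak within 50 kb (32.4 to 67.6%). Among member peaks it was 11 of 41 (14.2 to 42.9%), and among all annotated OPC peaks 34.9%. The intervals of members and further genes overlapped, and the difference was not tested. By role the members' median gap was 76.7 kb for retinoid receptors and 80.8 kb for the lipid, bile acid and vitamin D group. It was 249 kb for NR2 receptors, 237 kb for steroid and estrogen-related receptors and 117 kb for NR4, NR5 and NR6 receptors. The smallest values rest on few peaks: 0.36 kb for coregulators (3 peaks), 15.5 kb for clock and ROR receptors (1 peak) and 39.2 kb for retinoid genes (2 peaks).

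**Figure D4:**
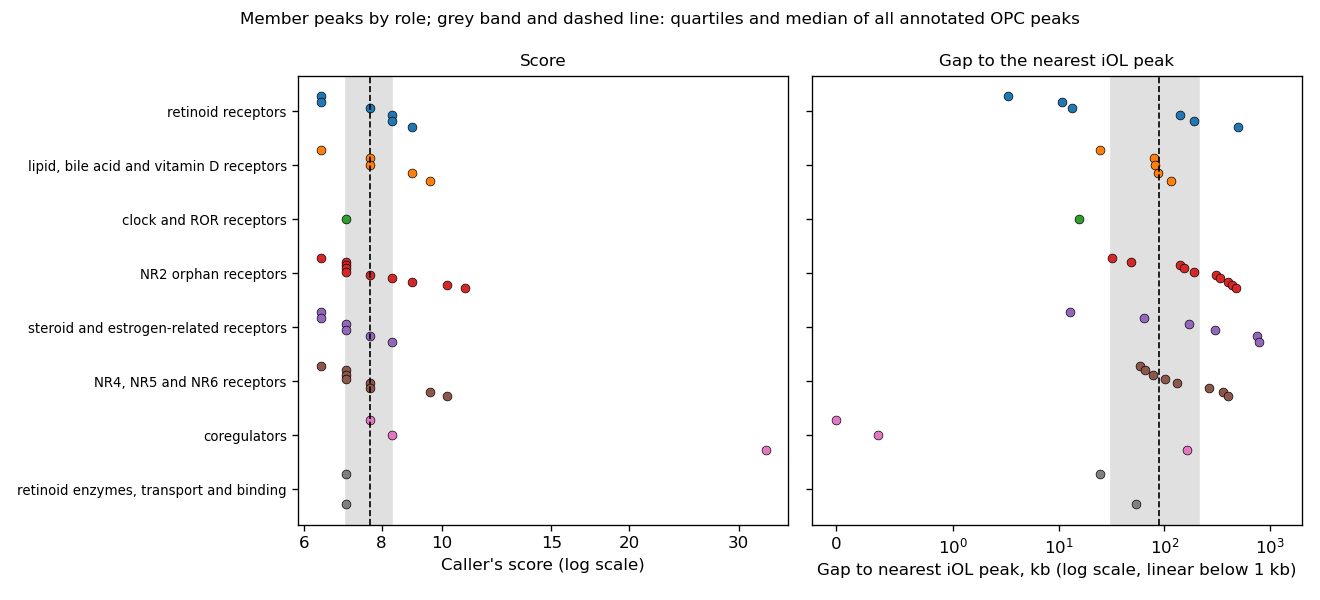
Caller's score (left, log scale) and gap to the nearest iOL peak in kb (right, log scale, linear below 1 kb) for each of the 41 member peaks, by role; grey bands and dashed lines give the quartiles and median of all annotated OPC peaks. Scores stay near the band except for the Ncoa2 peak at 33.2, and the 2 leftmost points on the right are the Ncoa2 peaks at 0 and 0.36 kb.

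For 10 members with at least 2 OPC peaks to the same start, the TSS could be placed on rn6 from the distances in the table, and iOL peaks between that TSS and the outermost OPC peaks could be counted. These spans held 27 OPC peaks and 6 iOL peaks lying wholly inside them, the latter at 4 genes. The iOL peak shared with the outer Ncoa2 peak ends at 5737153, past the end of that span at 5737147. It is therefore not among the 6. Aldh1a2 had an iOL peak 68463 bp downstream of its TSS, between its 2 OPC peaks. Ncoa2 had the one at 70210 bp named above. Nr2f1 had iOL peaks at -135612 and -306142 bp, nearer to its TSS than any OPC peak of this gene, and Nr2f2 had them at 440005 and -704563 bp. No iOL peak lay in the spans of Rarb, Ppard, Esr2, Nr3c2, Nr4a1 or Nr4a3. Ppard had 4 OPC peaks and 0 iOL peaks within 50 kb of its TSS, and Nr4a1 had 3 OPC peaks, 2 of them its own, and 0 iOL peaks. Esr2, Nr2f2 and Nr4a3 each had 1 OPC peak and 0 iOL peaks in this window. Aldh1a2 had 1 of each there, and within 100 kb it had 1 OPC peak and 3 iOL peaks. Nr2f1 had 0 OPC peaks and 1 iOL peak within 50 kb, and Ncoa2, Nr3c2 and Rarb had neither. These genes entered through their OPC peaks, so the 2 stages are not compared on equal terms here. The remaining members were not placed in the iOL list.

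A wider list of 50 further genes of these pathways, none of them members, had a peak in 17, 34.0% (21.2 to 48.8%), with 34 peaks in all, near the 30.1% of coding genes. Of these 50 genes 45 are coding with a curated transcript, as all genes of that background are, and the others had no peak. Of its receptors 4 of 11 had one, of its coregulators 5 of 14 and of its retinoid genes 8 of 25, which is 36.4%, 35.7% and 32.0%. Within 50 kb these shares were 27.3%, 35.7% and 28%. At any distance the further receptors were thus slightly highest, with an interval of 10.9 to 69.2% that includes the 54.1% of the member receptors. Within 50 kb the coregulators were highest. With 11 receptors these counts cannot decide whether the lead of the receptors among the members extends to further genes. Within 10 kb the receptors were highest, with 3 of 11 (27.3%, 6.02 to 61.0%). Coregulators there had 2 of 14 (14.3%, 1.78 to 42.8%) and retinoid genes 4 of 25 (16.0%, 4.54 to 36.1%). With members and further genes together, the counts were 24 of 48 receptors (interval 35.2 to 64.8%), 7 of 19 coregulators (36.8%, 16.3 to 61.6%) and 9 of 33 retinoid genes (27.3%, 13.3 to 45.5%). These joint counts include the members.

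In this wider list 9 genes had a peak within 10 kb of the TSS, 18.0% (8.58 to 31.4%), against 11.1% of coding genes. Cyp26b1, which degrades retinoic acid in the brain, was the nearest gene of 7 OPC peaks, more than any member. The nearest was in intron 1 of 5 at 602 bp (chromosome 4, 116277911 to 116278115, score 7.66), with an iOL peak 661 bp from it. The peaks at -49494 and -62864 bp fell in intron 21 of 22 of another gene, Exoc6b. Those at -34953, 83699 and 202036 bp lay in annotated repeats. Crebbp, a histone acetyltransferase that nuclear receptors recruit, had a promoter peak at 45 bp (score 8.3), and Thrb, the beta receptor for T3, one at -87 bp (score 6.38). Rarres1, a gene first found as induced by a retinoid, had an exon peak at 156 bp (score 6.38). Med1, the Mediator subunit that contacts nuclear receptors, had a peak at -1559 bp in a 5S rRNA repeat. Rxra, the RXR most widely expressed, had 4 peaks, the nearest at -4521 bp. Adh7 and Fabp5, a retinol dehydrogenase and a carrier that takes retinoic acid to PPAR delta, had peaks at 7065 and 7384 bp, the latter with a score of 14.7. Aldh1a2, for the synthesis of retinoic acid, and Cyp26b1, for its breakdown, each had an OPC peak within 1 kb of the TSS. Their scores were 7.02 and 7.66, at or below the median. Of the same families, Aldh1a1, Aldh1a3, Cyp26a1 and Cyp26c1 had no peak. Over members and further genes together, 3 of 33 retinoid genes had a peak within 1 kb (9.09%, 1.92 to 24.3%), against 4.46% of coding genes.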

How the data were processed

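Per the submitters' processing notes, Bowtie2 and HOMER were used, without versions or roles, with builds rn6 and hg18. The sources used here give neither the peak threshold nor the treatment of repeated reads, and the latter could move peaks in repeats. The authors deposited positions for each Seh1 library and 1 annotated table. Per the file headers this table was made on rn6 with annotatePeaks.pl from peaks of Seh1 in OPC and IgG in iOL. It is filed under iOL, but all 9084 intervals equal OPC intervals and 0 equal iOL intervals, so it was used as OPC annotation; 33 OPC peaks have none. Its deposited score is undefined, and its deposited focus ratio is a fraction from 0 to 1.

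Genes were matched by name. Of the table's peaks 99.2% had an ID in RefSeq assembly GRCr8, used for names and promoters. Peaks were shared at 1 bp of overlap or more, and gaps count the bases between peaks. Repeats are peaks whose detailed label names one. The members and lists were chosen with earlier results of these data known, so no test was run. Python 3.11.15, pandas 2.3.3 and SciPy 1.17.1 were used, and overlap, gap and motif searches were tested on simulated data. Named in full were members with a peak within 10 kb of a TSS or in a promoter, exon or UTR, the 5 highest scores, those with an iOL peak within 10 kb and the 3 genes with most peaks. Further genes were named if within 10 kb, and values of some are not reported here. Scores and positions of the remaining members, the shares upstream and without Nr2f1, the spans, the scores of 7SL copies and the printing of the Nr4a1 and Rarg promoters were added after values were seen.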

Additional observations from a re-analysis of the deposited data

How the results depend on the processing

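With 1 Seh1 library per stage no replicate could be left out, and no paired analysis was possible because each group has 1 sample and no result comes from a test. The number of members with an OPC peak, 23, was 17 within 50 kb, 20 without repeats and 23 by numeric ID, but 11 within 10 kb and 10 with scores above the median. Without repeats the share was 40.0%, against 22.7% of coding genes. With scores above the median it was 20.0%, against 11.1%. Receptors with a peak, 20, were 16 within 50 kb, 17 without repeats and 24 with the further genes added. Coregulators, 2 genes, fell to 0 within 50 kb and rose to 7 with the further genes added, and retinoid genes, 1, rose to 9 with them, because those settings count other peaks or genes. Member peaks at an iOL peak, 1 by overlap, were 2 within 1 kb, 3 within 10 kb and 0 without repeats, since the shared peak is a 7SL copy. The count within 1 kb was 4.88% of member peaks, against 2.88% of all annotated peaks. Promoter peaks, 1 by class, were 3 within 1 kb, 5 within 3 kb and 0 with scores above the median. Within 1 kb this was 7.32% of member peaks against 9.47% of all annotated peaks, and within 3 kb 12.2% against 13.8%. The median score was 7.66 also without repeats and within 50 kb, and the mean was 8.35. Upstream peaks, 25, were 20 without Nr2f1, a setting added after seeing the data. Depth is unknown, so a gene without a called peak is not shown to be unbound.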

Other observations

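Some members lie near each other or near a thyroid hormone receptor gene, regions picked after their values were seen. On chromosome 15, all 7 annotated OPC peaks between 9080154 and 10196537 had Thrb (5 peaks) or Rarb (2 peaks) as nearest gene, and 4 iOL peaks lay in the same 1120 kb. The bounds of this stretch are themselves peaks of the 2 receptors, one for T3 and one for retinoic acid. Which gene is nearest there also depends on where the genes lie. On chromosome 10, the peaks of Med1, Nr1d1 and Rara stood within 749 kb together with 9 others, whose nearest genes included Cdc6, Cdk12, Erbb2, Msl1 and Wipf2, and with 6 iOL peaks. On chromosome 7, the 4 peaks of Nr4a1 and Rarg stood within 963 kb with 8 peaks nearest to Igfbp6, Soat2 and keratin genes, and with 7 iOL peaks.

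Of the further genes, Tbl1xr1, a subunit of the NCoR corepressor complex, was the only one with a shared peak. Its OPC peak, labelled as a CpG island at -15025 bp (chromosome 2, 107217927 to 107218131, score 8.94), overlapped an iOL peak by 168 bp. Cyp26b1 had an iOL peak at -266 bp from its TSS, placed from the distances of its OPC peaks, 661 bp from its OPC peak in intron 1.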
